A study of Homo sapiens with 6 samples.

Results

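The genes described here handle heme and iron in HCT116, an established human colorectal cancer cell line. The cells carried a lentiviral short hairpin RNA (shRNA) directed at PNO1, named sh-PNO1, or a control hairpin, named sh-Ctrl, and RNA was collected 72 h after transduction. PNO1 is a nucleolar protein that helps assemble the 40S ribosomal subunit. There were 3 samples per group, each hybridised to 1 Affymetrix expression array. Every sample is this single cell line, the labels name a single hairpin per group, and they do not say whether replicates are separate cultures, so the spread between arrays may be technical. The set is a list of 10 genes, HMOX1, HMOX2, TFRC, FTH1, FTL, SLC40A1, SLC11A2, ALAS1, FECH and IREB2, and it was chosen from the difference between these same 2 groups, because HMOX1 and TFRC were higher in sh-PNO1. Differences of the 10 genes are therefore given as a description, with no p-value. A probe set is a group of probes that reads 1 transcript or a family of similar ones. Of the 10 genes, 8 had probe sets carrying that symbol alone, 32 probe sets in all, against 18132 genes and 49293 tested probe sets in the whole series; FTH1 and IREB2 were not analysed here.

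Iron enters most cells bound to transferrin through the transferrin receptor (TFRC), crosses the endosomal membrane through the transporter DMT1 (SLC11A2), is stored in ferritin, a shell of heavy (FTH1) and light (FTL) chains, and leaves through ferroportin (SLC40A1). Heme is built by a chain of enzymes that starts with aminolevulinate synthase (ALAS1) and ends with ferrochelatase (FECH), which inserts the iron. Heme oxygenases (HMOX1, inducible, and HMOX2, constitutive) open the ring and release iron, carbon monoxide and biliverdin. Iron regulatory proteins (IRPs; IREB2 encodes one) bind hairpins in messenger RNA called iron-responsive elements (IREs). An IRE near the 5′ end, as in FTL, lets an IRP block translation, and IREs in the 3′ part, as in TFRC, let it stabilise the transcript.

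Some of the sequences through which these genes are known to be controlled lie near their transcription starts. RefSeq promoter windows (GRCh38.p14), 250 bases before to 50 bases after an annotated start, were used for 8 of the 10 genes, all but HMOX1 and FTH1, in 13 windows. An IRE was searched as a C, 5 bases, the loop CAGTGN and 5 bases that pair with the first 5, G-T pairs allowed. On the strand that reads like the transcript 37 of 35116 windows held it (0.105%), before or after the start, and on the other strand 39 did. In 8 windows it lay after the start, among them those of FTL and of ALAS2, the red-cell counterpart of ALAS1. For ALAS1 and TFRC the letters shown are GCATGCGC, the core bound by the respiratory regulator NRF1, and ACGTG, the core of the hypoxia response element. On either strand GCATGCGC was in 3.05% of all windows and, among the listed genes, in that of ALAS1. ACGTG was in 21.4% of all windows, and among the listed genes in windows of HMOX2, TFRC and FTL. A match describes letters and is not evidence of use, and the arrays do not measure binding. The 30-base stretches follow, 5′ to 3′, with the IRE loop or the searched letters in capitals.
FTL, chr19:48965329-48965358, plus strand: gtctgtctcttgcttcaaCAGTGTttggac
ALAS2, chrX:55030940-55030969, minus strand: ttcgttcgtcctCAGTGCagggcaacaggt
ALAS1, chr3:52198096-52198125, plus strand: cgcccaaggcGCATGCGCagcggtcactcc
TFRC, chr3:196082159-196082188, minus strand: tcgcgagcgtACGTGcctcaggaagtgacg

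The targeted gene was checked first. Its brightest probe set stood at 535, 535 and 532 in sh-Ctrl and at 105, 108 and 105 in sh-PNO1, so 19.8% of the control intensity was left. Its other 2 probe sets stood at 28.7% and 29.1% of control (log2 differences −1.80 and −1.78). In a bulk sample fewer cells with a transcript and less of it per cell cannot be told apart, here or for any gene below. On the brightest the log2 difference was −2.33 ± 0.04 (SE, limma adjusted p = 3.32e-07), and an exact two-sided permutation test gave p = 0.1, the smallest value 3 arrays against 3 can give. Array medians lay between 25.6 and 25.9, and log2 values correlated at 0.998 to 0.999 within groups and at 0.992 to 0.993 between them. Of 9 colorectal epithelial markers, EPCAM, KRT8, KRT18 and KRT19 had group means from 1878 to 3000.4, and CDH1 232 and 287. The rest were dim. CDX2 stood at 63.3 to 67.2, KRT20 at 24.4 to 27.2, CDX1 at 23.0, and VIL1, an intestinal brush border gene, at 4.38 to 4.88. KRT19 (log2 difference 0.37) and CDH1 (0.31) were higher in sh-PNO1 and no marker was lower. None of the 5 erythroid and 6 macrophage markers measured was called, and their summed intensities were 96.0 to 97.4 and 73.1 to 74.5 in sh-Ctrl and 97.5 to 103 and 72.7 to 77.2 in sh-PNO1. Among these markers EPB42 (7.20 to 7.65) and PTPRC (3.65 to 3.79) read lowest, near the floor of the array. Not all were that dim. GATA1 and CSF1R reached group means of 29.0, and HBB stood at 27.2 to 28.5, above the array medians. Background probe sets with 18 to 20 GC bases had group means of 19.9 to 33.7, so such readings cannot be told from nonspecific signal here. As a measure of RNA integrity, the log2 gap between the 3′ and 5′ ACTB readings was 1.73 to 1.87 on 5 arrays and 2.25 for replicate 2 of sh-PNO1. The same gap for GAPDH lay between −0.03 and −0.01 on the control arrays and between −0.08 and −0.06 on the sh-PNO1 arrays, with no overlap. The part of either in the results was not tested beyond leaving out that replicate.

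Across the list, 4 of the 8 genes read higher in sh-PNO1 on their brightest probe set (HMOX1, HMOX2, TFRC and ALAS1), 1 read lower (FECH), and 3 were not called (FTL, SLC40A1 and SLC11A2). By the brightest probe set 18.4% of all genes were called higher and 13.2% lower. A call here is a limma adjusted p under 0.05 in a fit of all probe sets. By probe set, 11 of 32 were called higher and 9 lower, where 14.8% of all probe sets were called higher and 13.2% lower. In 25 of 32 the arrays of the groups did not overlap, where this held for 40.2% of all probe sets. Without the sh-PNO1 replicate 2 array 10 were called higher and 5 lower. These counts come from the contrast that chose the list and nothing is read from them. The median log2 difference was 0.15 over the 8 brightest probe sets, beside 0.03 over all genes, and 0.02 over the 32 probe sets, beside 0.01 over all probe sets.

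**Figure D1:**
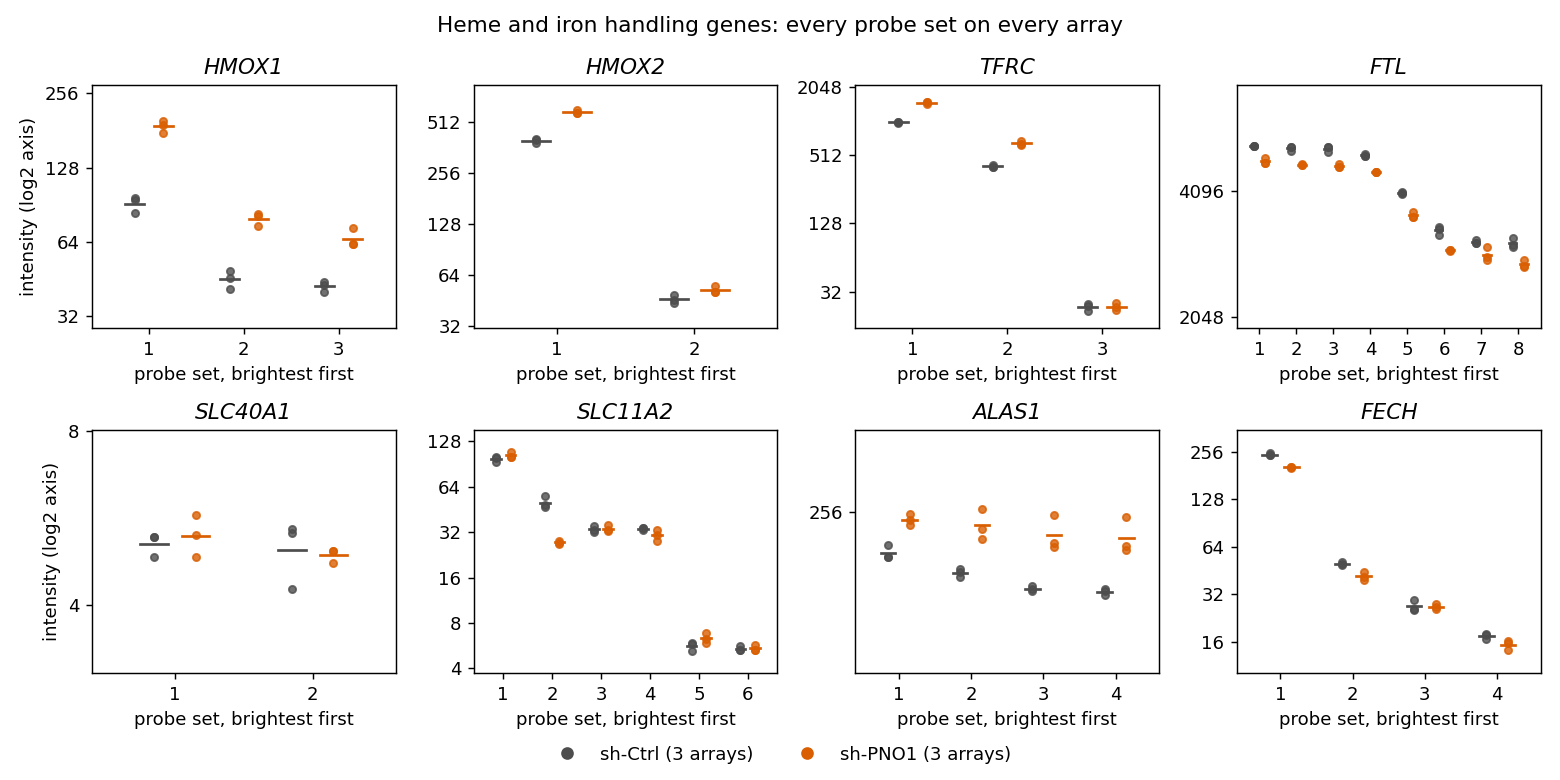
Intensity on a log2 axis of every probe set of the 8 genes on every array (dots; grey sh-Ctrl, orange sh-PNO1; 3 arrays each; lines are geometric means), with probe sets numbered from the brightest within a gene. The 3 HMOX1 probe sets and the 2 brighter TFRC probe sets separate the groups widely, the 8 FTL probe sets by a narrow margin, and those of SLC40A1 not at all.

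Among the enzymes that break heme down, both heme oxygenases were higher in sh-PNO1. The brightest HMOX1 probe set stood at 96, 83.9 and 95 in sh-Ctrl and at 191, 177 and 198 in sh-PNO1. Every sh-PNO1 array was far above every control; the mean went from 91.7 ± 6.71 to 188 ± 10.6 (SD, n = 3), which is 2.06-fold (log2 difference 1.04 ± 0.07 SE). The second probe set read 45.7, 41.4 and 48.7 in sh-Ctrl and 82.8, 74.0 and 81.6 in sh-PNO1, a log2 difference of 0.81 ± 0.07 SE. The third read 42.9, 40.2 and 43.9 against 62.7, 62.7 and 72.6, a difference of 0.64 ± 0.07 SE. All 3 therefore show the same direction with sizes from 1.56-fold to 2.06-fold, and no array of one group overlapped the other.

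HMOX2, usually described as the constitutive form, was also higher. Its brighter probe set stood at 403, 397 and 385 in sh-Ctrl and at 603, 573 and 576 in sh-PNO1, with no overlap and a log2 difference of 0.56 ± 0.04 SE. The dimmer one read 43.4, 48.7 and 45.1 against 55.2, 50.6 and 50.8, a difference of 0.19 ± 0.06 SE in which the lowest sh-PNO1 array was only just above the highest control. The size of the HMOX2 difference thus depended on the probe set, 1.48-fold on one and 1.14-fold on the other. With single arrays left out, the second kept its call only without sh-Ctrl replicate 2.

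TFRC, through which transferrin-bound iron is taken up, was higher on both of its bright probe sets. The brightest stood at 999, 987 and 1005 in sh-Ctrl and at 1487, 1430 and 1515 in sh-PNO1, a log2 difference of 0.57 ± 0.04 SE. The next read 417, 405 and 405 against 676, 626 and 644, a difference of 0.66 ± 0.05 SE. In each the 3 sh-PNO1 arrays lay well above the controls, at 1.48-fold and 1.58-fold. The remaining TFRC probe set was dim, at 21.6, 24.8 and 24.0 in sh-Ctrl and 22.4, 23.4 and 25.5 in sh-PNO1, and its groups overlapped (0.02 ± 0.07 SE).

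SLC11A2, the endosomal iron transporter, split by probe set. The brightest read 100.3, 93.2 and 98.4 in sh-Ctrl and 100.8, 108 and 100.8 in sh-PNO1, a log2 difference of 0.09 ± 0.05 SE with the sh-PNO1 arrays just above the controls. The probe set designed on AB062284.1 went far the other way, at 55.5, 46.9 and 48.1 in sh-Ctrl and 26.7, 27.2 and 28.1 in sh-PNO1. Its sh-PNO1 mean was 54.5% of the control mean and the groups stood clearly apart (−0.87 ± 0.07 SE). It was the lowest of the 32 differences. Of the other 4, the probe set designed on R36134 read 33.1, 34.1 and 33.9 in sh-Ctrl and 33.1, 30.5 and 28.1 in sh-PNO1, with 1 sh-PNO1 array among the controls. All 4 lay between −0.14 and 0.18, and 2 of them had group means of 5.40 to 6.36 only. SLC11A2 is known to make several transcripts that differ at both ends; which of them each probe set reads was not analysed here. The sign for the gene as a whole turned with the choice of probe set, being 0.09 on the brightest, −0.12 on the mean of all 6 and −0.87 on the most variable.

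The ferritin light chain FTL was slightly lower. Its brightest probe set stood at 5252, 5269 and 5263 in sh-Ctrl and at 4928, 4795 and 4779 in sh-PNO1. The sh-PNO1 arrays lay below all controls, and the group mean was 91.9% of the control mean (log2 difference −0.12 ± 0.04 SE). The widest difference was on the fifth, at 4090, 4037 and 4069 against 3658, 3558 and 3547 (−0.18 ± 0.04 SE). On the probe set with the smallest difference the arrays read 3127, 3083 and 3079 against 3006, 2855 and 2797 (−0.10 ± 0.05 SE). Over all 8 probe sets the difference ran from −0.18 to −0.10, with the groups apart in each, so the direction was shared and the size was small. All 8 carry a suffix (_s_at or _x_at) that marks probes matching several transcripts, and FTL has many processed pseudogene copies, so these readings may not be from FTL alone. Fewer of them were called whichever array was left out. With all arrays 6 of 8 passed, but 1 without sh-Ctrl replicate 3, 3 without sh-PNO1 replicate 1 and 2 with any other single array left out. In these smaller fits the differences stayed between −0.19 and −0.08. FTL is the gene whose 5′ IRE is printed above; an IRE there acts on translation, which these arrays do not measure.

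Ferroportin, SLC40A1, the iron exporter, read near the floor of the array. Its probe sets stood at 4.85, 5.24 and 5.24 and at 5.41, 5.34 and 4.27 in sh-Ctrl. In sh-PNO1 they stood at 4.84, 5.74 and 5.28 and at 4.95, 4.95 and 4.74. Groups overlapped on both, with log2 differences of 0.05 ± 0.07 SE and −0.03 ± 0.09 SE. Background probe sets with 14 and 15 GC bases had group means of 4.24 and 6.19, so at these intensities a difference could not be seen well.

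The first and last enzymes of heme synthesis differed in opposite directions. ALAS1, the first and rate-limiting enzyme, was higher on all 4 probe sets. The brightest read 222, 211 and 211 in sh-Ctrl and 242, 254 and 247 in sh-PNO1 (log2 difference 0.21 ± 0.05 SE). Between them in brightness, one read 194, 198 and 201 against 260, 238 and 228 (0.29 ± 0.06 SE). Another read 186, 184 and 183 against 252, 224 and 220.2 (0.33 ± 0.06 SE). These sizes differ little next to their errors. The dimmest read 182, 179.7 and 184 against 251, 217 and 222 (0.34 ± 0.06 SE). No sh-PNO1 array overlapped the controls on any of the 4. On the 3 other than the brightest, sh-PNO1 replicate 1 was the highest array.

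FECH, which inserts iron into the finished ring, was lower. Its brightest probe set stood at 243, 251 and 243 in sh-Ctrl and at 206, 202 and 204 in sh-PNO1, a difference of −0.26 ± 0.04 SE. The second read 49.6, 48.7 and 51.2 against 44.2, 41.1 and 39.2, also −0.26 ± 0.05 SE. Groups were apart on both, with 83.3% of the control mean left on each. The brightest ends in _s_at, a suffix that marks probes matching several transcripts. Without _x_at and _s_at probe sets 3 were left for FECH, of which 1 was called lower. The dimmest probe set was lower too (17.4 ± 0.70 to 15.3 ± 1.05, SD, n = 3; −0.19 ± 0.06 SE), while the third overlapped (26.8 ± 2.26 to 26.5 ± 0.98, SD, n = 3; −0.02 ± 0.07 SE).

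**Figure D2:**
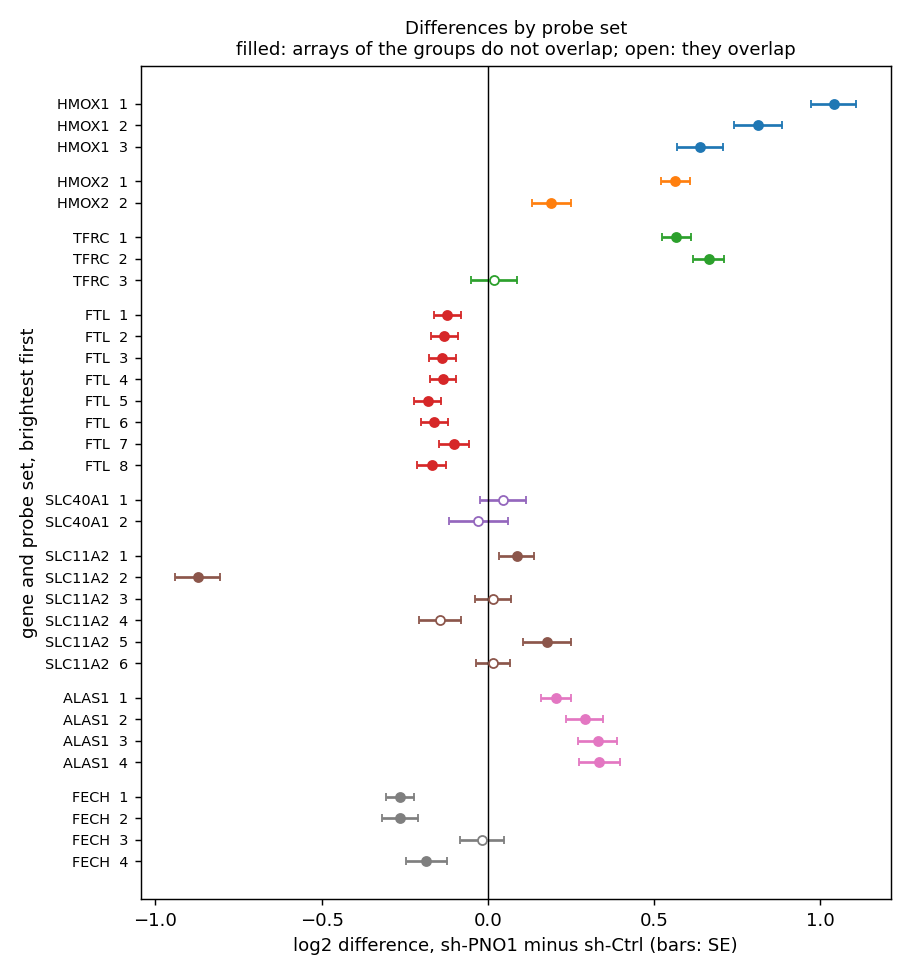
Log2 difference (sh-PNO1 minus sh-Ctrl, horizontal axis, bars are SE) of each of the 32 probe sets, numbered from the brightest within a gene; filled points have arrays of the groups that do not overlap. HMOX1, HMOX2, TFRC (2 of 3) and ALAS1 lie to the right, FTL and FECH (3 of 4) to the left, and 1 SLC11A2 probe set stands apart at −0.87.

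How far each of these readings stands above nonspecific signal differed. Among 23 background probe sets the group means ran from 2.52 to 804, rising with GC content. The 8 FTL probe sets and the brightest TFRC probe set, 9 of 32, had a group mean above all of them. The other 23 could not be judged without the GC content of their probes, which was not used here, and a dim probe set can read a difference as smaller than it is. The background probe sets with 22 to 25 GC bases were themselves higher in sh-PNO1 by 0.09 to 0.12 on the log2 scale, and the largest difference among the others was 0.034 in size. That shift is of the size of the smallest differences above; its part in them was not tested.

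Genes outside the list give the rest of the pathway. From textbook knowledge 78 further heme and iron genes were grouped by role, and 68 had a probe set of their own symbol. Each was read on its brightest. The lists were chosen with earlier results of these data known, so their counts are a description. Of the 68, 22 rose and 10 fell in limma (adjusted p under 0.05), with a median log2 difference of 0.04. Over all 18132 genes 18.4% rose and 13.2% fell, with a median of 0.03. The background limits of the listed genes hold here too. ALAD, SLC48A1, STEAP2 and CYBRD1, described below, were among genes with no group mean above every background probe set. The background probe sets with 22 to 25 GC bases were higher in sh-PNO1 by 0.09 to 0.12. The part of that shift in the smaller rises below was not tested.

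Among 10 other genes of heme synthesis, 5 of them enzymes of the steps between ALAS1 and FECH and the rest ALAS2, carriers and helpers, 6 rose and 1 fell, with a median of 0.21. Of those 5 enzymes ALAD, UROD and CPOX rose, while UROS (−0.03, adjusted p = 0.766) and PPOX (0.11, adjusted p = 0.21), named after their values were seen, did not pass. ALAD, the enzyme after ALAS1, rose from 49.2 ± 0.25 to 69.6 ± 1.17 (SD, n = 3), a log2 difference of 0.50 ± 0.04 SE (adjusted p = 7.68e-05). Background probe sets with 20 to 22 GC bases had group means of 32.9 to 88.8, a range that holds both ALAD means. UROD, uroporphyrinogen decarboxylase, rose by 0.29 ± 0.04 SE (adjusted p = 0.00152, 5 of 7 probe sets), and SLC25A38, a mitochondrial glycine carrier that feeds ALAS, by 0.23 ± 0.04 SE (adjusted p = 0.00571). TMEM14C, a mitochondrial protein that helps move protoporphyrinogen, fell from 652 ± 6.37 to 476 ± 16.8 (−0.45 ± 0.04 SE, adjusted p = 0.0002, 2 of 2 probe sets). Both of its probe sets end in _x_at or _s_at. Without such probe sets 7 of the 10 genes were left, of which 6 rose and none fell. ALAS2, CPOX (coproporphyrinogen oxidase) and CLPX (a mitochondrial unfoldase that activates ALAS), named after their values were seen, rose by 0.26, 0.27 and 0.19. They were less secure. ALAS2 was dim, at 28.1 ± 1.72 in sh-Ctrl and 33.5 ± 1.43 in sh-PNO1 (SD, n = 3). Background probe sets with 19 and 20 GC bases had group means of 28.1 to 33.7. ALAS2 was called on 1 of 3 probe sets, stood at 0.12 with them averaged (adjusted p = 0.0794) and did not pass without sh-PNO1 replicate 1 (adjusted p = 0.0524). Nor did CPOX pass without sh-Ctrl replicate 1 or 3 (up to 0.0717), or CLPX without any array but sh-PNO1 replicate 3 (up to 0.133).

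In heme transport and breakdown 1 of 8 genes rose and 1 fell, with a median of −0.04. SLC48A1, which carries heme out of lysosomes, rose from 98.5 ± 3.58 to 160 ± 7.25 (0.70 ± 0.05 SE, adjusted p = 5.03e-05). Its probe sets disagreed, 2 of 4 passing, the lowest at 0.08 and their mean at 0.30 (adjusted p = 0.000359), and it did not pass without _x_at and _s_at probe sets (0.08, adjusted p = 0.401). BLVRB, a flavin reductase that also reduces biliverdin isomers other than the alpha form, fell by 0.15 on the log2 scale (adjusted p = 0.0385), but passed with only sh-Ctrl replicate 2 among the single arrays left out (otherwise up to 0.105). BLVRA, which reduces the alpha form that heme oxygenases make, named after its value was seen, stood at 0.11 ± 0.05 SE (adjusted p = 0.174).

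In iron uptake and export 2 of 13 genes rose and 2 fell, with a median of −0.02. The genes that fell were STEAP2 and CYBRD1. STEAP2, a metalloreductase, fell from 116 ± 13.3 to 67.7 ± 3.30 (−0.77 ± 0.08 SE, adjusted p = 0.000286, 2 of 2 probe sets). CYBRD1, the duodenal ferric reductase, fell from 114 ± 2.70 to 73.3 ± 6.55 (−0.64 ± 0.07 SE, adjusted p = 0.000298, 1 of 4 probe sets). The mean of the 4 stood at −0.27 (adjusted p = 0.000748), and without _x_at and _s_at probe sets CYBRD1 stood at −0.17 (adjusted p = 0.144). The related reductases STEAP3 and STEAP4, named after their values were seen, stood at −0.14 (adjusted p = 0.0719) and −0.02 (adjusted p = 0.779). SLC39A14, a transporter of iron that is not bound to transferrin, rose from 586 ± 8.02 to 767 ± 32.9 (0.39 ± 0.05 SE, adjusted p = 0.000606), yet on 1 of 4 probe sets only, and the mean of the 4 stood at 0.04 (adjusted p = 0.488). LCN2, lipocalin 2, which binds bacterial siderophores, rose by 0.27 at a low intensity (13.4 ± 0.99 to 16.1 ± 0.36, adjusted p = 0.0108).

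Among the genes of iron storage and IRP control 4 of 7 rose and none fell, with a median of 0.19. Without _x_at and _s_at probe sets 4 of these genes were left, of which 2 rose and none fell. FBXL5 and NCOA4, named below, had only probe sets with those suffixes. ACO1, which encodes IRP1, rose from 221 ± 9.30 to 277 ± 7.22 (0.33 ± 0.05 SE, adjusted p = 0.00164, 2 of 3 probe sets). FBXL5, the iron-sensing ligase subunit that marks IRP2 for degradation, rose by 0.22 ± 0.05 SE (adjusted p = 0.00917, 2 of 2), and HERC2, a ligase that acts on FBXL5, by 0.19 ± 0.04 SE (adjusted p = 0.0135, 1 of 2). With probe sets averaged HERC2 stood at 0.11 (adjusted p = 0.132), and on its most variable one at 0.03 (adjusted p = 0.812). NCOA4, the receptor that delivers ferritin to autophagy, rose by 0.22 ± 0.06 SE (adjusted p = 0.0298) but passed with only sh-Ctrl replicate 2 among the single arrays left out (otherwise up to 0.0935). Of 3 other transcripts with an IRE, EPAS1, which encodes HIF-2 alpha and has a 5′ IRE, rose by 0.23 ± 0.05 SE (adjusted p = 0.00573, 2 of 2 probe sets). CDC42BPA, a kinase gene with a 3′ IRE, fell by 0.16 (adjusted p = 0.0317), a call kept with only sh-Ctrl replicate 2 among the single arrays left out (otherwise up to 0.0957). With probe sets averaged CDC42BPA stood at −0.09 (adjusted p = 0.278), and on its most variable one at −0.28 (adjusted p = 0.101).

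**Figure D3:**
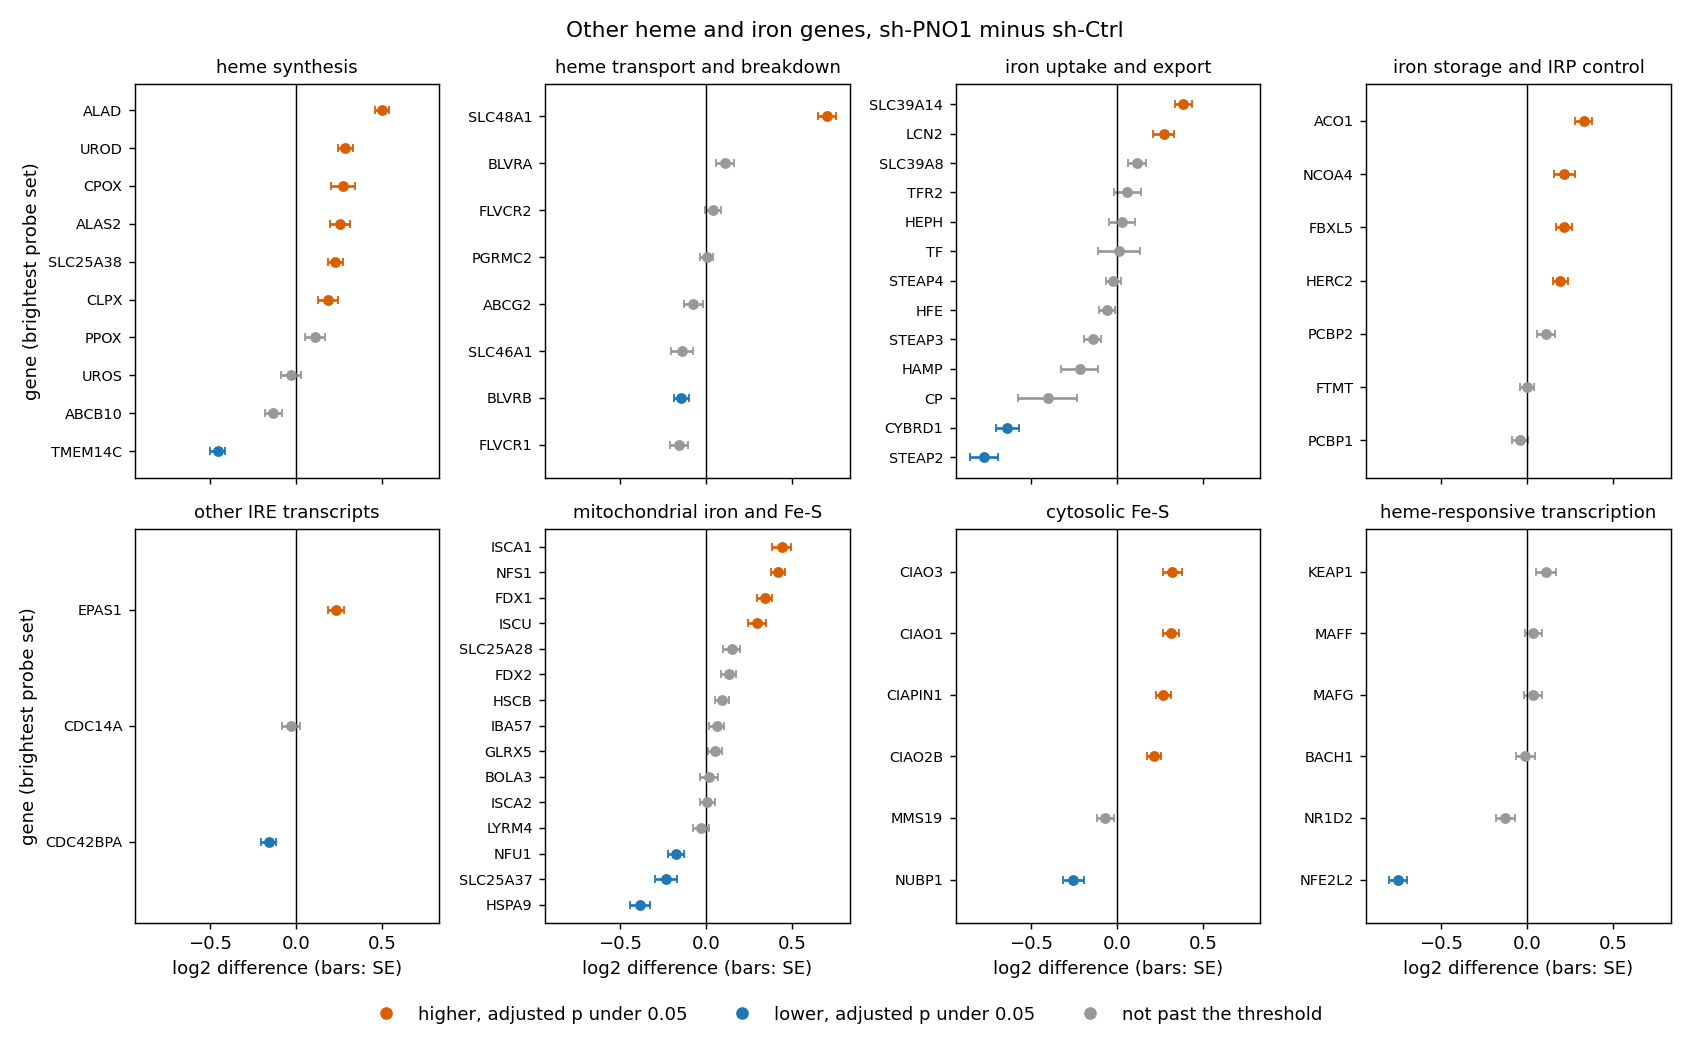
Log2 difference (sh-PNO1 minus sh-Ctrl, bars are SE) of the brightest probe set of the 68 other heme and iron genes, in panels by role; orange rose and blue fell at a limma adjusted p under 0.05, grey did not pass. In heme synthesis 6 of 10 rose, in iron storage and IRP control 4 of 7 and in cytosolic Fe-S 4 of 6. In mitochondrial iron and Fe-S 4 of 15 rose, and in other IRE transcripts 1 of 3. In iron uptake and export 2 of 13 rose, in heme transport and breakdown 1 of 8 and in heme-responsive transcription 0 of 6. Over all genes 18.4% rose and 13.2% fell. STEAP2, NFE2L2 and CYBRD1 lie farthest to the left.

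Iron is also used for iron-sulfur clusters. Of 15 genes of mitochondrial iron and cluster assembly, 4 rose and 3 fell, with a median of 0.06. Without _x_at and _s_at probe sets, 11 of these genes were left, of which 1 rose and 1 fell. ISCA1, a late assembly factor, rose from 215 ± 6.0 to 291 ± 17.8 (0.44 ± 0.06 SE, adjusted p = 0.000745, 3 of 3 probe sets, all with those suffixes). NFS1, the cysteine desulfurase, rose by 0.42 ± 0.04 SE (adjusted p = 0.000256, 1 of 4), and FDX1, a ferredoxin, by 0.34 ± 0.04 SE (adjusted p = 0.000723, 1 of 3). With probe sets averaged NFS1 stood at 0.15 (adjusted p = 0.0357) and FDX1 at 0.17 (adjusted p = 0.00868). Without _x_at and _s_at probe sets FDX1 stood at 0.10 (adjusted p = 0.262). ISCU, the scaffold on which clusters form, named after its value was seen, rose by 0.29 (adjusted p = 0.00313) and stood at 0.18 (adjusted p = 0.059) without them. HSPA9, the mitochondrial chaperone that works on the scaffold, fell from 1416 ± 46.6 to 1084 ± 69.4 (−0.39 ± 0.06 SE, adjusted p = 0.00164, 5 of 5). SLC25A37 (mitoferrin 1, the mitochondrial iron importer) and NFU1, a late carrier of clusters, fell by 0.23 and 0.18 (adjusted p = 0.0294 and 0.0252). SLC25A37 stood at −0.11 (adjusted p = 0.339) without _x_at and _s_at probe sets, and at −0.41 (adjusted p = 0.00187) on its most variable one. It passed with only sh-PNO1 replicate 1 among the single arrays left out (otherwise up to 0.0997), and NFU1 with only sh-Ctrl replicate 3 or sh-PNO1 replicate 2 (otherwise up to 0.08).

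Of 6 genes that build cytosolic clusters 4 rose and 1 fell, with a median of 0.24. CIAO1 rose by 0.32 ± 0.04 SE (adjusted p = 0.00122, 4 of 4 probe sets), CIAPIN1 by 0.27 ± 0.04 SE (adjusted p = 0.00249, 4 of 6) and CIAO2B by 0.22 ± 0.04 SE (adjusted p = 0.00462, 2 of 2). CIAO3 rose by 0.32 ± 0.06 SE on its brightest probe set (adjusted p = 0.00336, 4 of 9), but turned to −0.04 (adjusted p = 0.589) without _x_at and _s_at probe sets. NUBP1, a scaffold protein, fell by 0.25 ± 0.06 SE (adjusted p = 0.0161), though not past the threshold without sh-Ctrl replicate 2 or 3 (up to 0.0653).

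HMOX1 is a textbook target of the activator NRF2, encoded by NFE2L2, and of the heme-sensing repressor BACH1. Among 6 genes of heme-responsive transcription, none rose and 1 fell in limma, with a median of 0.01. The gene that fell was NFE2L2, from 1239 ± 29.4 to 737 ± 38.9 (−0.75 ± 0.05 SE, adjusted p = 3.59e-05, 2 of 2 probe sets), while HMOX1 read higher on the same arrays. BACH1, named after its value was seen, stood at −0.01 ± 0.06 SE on a dim probe set (11.9 ± 0.83 to 11.8 ± 0.12, adjusted p = 0.916). KEAP1, which holds NRF2 in check and was likewise named afterwards, stood at 0.11 ± 0.06 SE (adjusted p = 0.216). Messenger RNA levels do not give the amount or activity of these factors.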

How the data were processed

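RNA from 6 samples was labelled as biotinylated cRNA from 100 ng of total RNA. The deposited values are intensities for 49395 probe sets. The authors summarised them by RMA, per the submitters' processing notes. The sources used here do not give its version, its software or its background step. The intensities were linear, so log2 was taken. RMA normalises between arrays, so every difference is relative to the other genes of an array. Gene names came from the platform annotation table (44988 with 1 symbol, 1832 with several, 2473 not listed, 102 controls). The identifiers of all 32 probe sets of the 8 genes matched RefSeq with the same symbol. All 49293 non-control probe sets, with no filter on low values, entered lmFit and eBayes of limma 3.58.1 under R 4.3.3, with Benjamini-Hochberg adjustment over all of them. The brightest probe set stood for a gene. The rule named PNO1, the listed genes, up to 4 called genes of each pathway list by smallest adjusted p, and those against their list's direction. On simulated data for this comparison (49293 probe sets, 200 changed) the fit recovered 71.5% of log2 changes of 0.5 and 96.5% of changes of 1. These rates are not estimates for the real contrast. There 14.8% of all probe sets were called higher and 13.2% lower, a far larger share than the simulation changed. Sizes under 0.5, which many of the differences above had, were not simulated. The genes, lists and tests were chosen with earlier results of these data known.

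Same-numbered samples did not deviate together in every pair (r = −0.04, 0.10 and −0.03 for numbers 1, 2 and 3), so the numbers were not treated as pairs. Among differently numbered samples r was 0.09 for sh-Ctrl 1 with sh-PNO1 3 and 0.07 for sh-Ctrl 3 with sh-PNO1 1. It was negative for the others. A pairing in that other order was not tested. Alternatives were a replicate block, a mean-variance trend with robust prior, array weights, repeated quantile normalisation, equal array medians, an offset of 16, the dimmest 30% left out, other ways to combine or choose probe sets, an adjusted p under 0.01, and each array left out in turn.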

Additional observations from a re-analysis of the deposited data

How the results depend on the processing

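PNO1 stayed between −2.35 and −1.97 on the log2 scale under all 17 alternatives, each time past the limma threshold. The listed genes' probe sets called higher numbered 11, and 7 to 11 over 15 alternatives; those called lower numbered 9, and 2 to 11. Pathway genes that rose numbered 22, and 15 to 25 over 18 alternatives; those that fell numbered 10, and 5 to 14. Leaving out probe sets ending in _x_at or _s_at left 7 of the listed genes' probe sets higher and 2 lower, the 8 of FTL being among those left out, and 6 pathway genes lower; CIAO3 then turned to −0.041. At an adjusted p under 0.01 there were 3 listed probe sets and 5 pathway genes lower. With the replicate block 4 listed probe sets were lower, 1 of them for FTL; 21 pathway genes rose and 8 fell, CLPX, BLVRB, CDC42BPA and NFU1 no longer passing and HAMP passing. With single arrays left out, listed probe sets called lower ran from 4 to 7 and pathway genes that fell from 6 to 8; the lowest were without sh-Ctrl replicate 3 for the former and without sh-Ctrl replicate 1 or 3 or sh-PNO1 replicate 3 for the latter. With 1 value per listed gene only SLC11A2 and SLC40A1 changed sign under any alternative, and both were uncalled on their brightest probe set. Single probe sets of other listed genes also did. The dim TFRC one stood at −0.04 without sh-Ctrl replicate 1, and 1 of FECH at 0.05 without sh-Ctrl replicate 2. Signal over background limits what SLC40A1 and the dim probe sets of SLC11A2, TFRC and FECH can show.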

Other observations

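In some heme and iron genes the probe sets disagreed, as in SLC11A2; these genes were named after their values were seen. PGRMC2, a heme-binding membrane protein, stood at 0.00 on the log2 scale on its brightest probe set (adjusted p = 0.971 in limma), while the other of its 2 probe sets stood at −0.47 and was called lower. PCBP2, an iron chaperone, stood at 0.11 on its brightest probe set (adjusted p = 0.159), while 4 of its 8 probe sets were called lower and the lowest stood at −0.27. SLC39A8, a metal transporter, stood at 0.12 (adjusted p = 0.142), while 2 of its 6 probe sets were called lower and the lowest stood at −0.28. For these 3 genes the brightest probe set and the called ones thus have opposite signs or, in PGRMC2, no difference against a lower one.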
